A study of Mus musculus with 4 samples.

Results

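The interleukin-1 (IL-1) family genes described here are 9 of the 21878 genes listed, taken by symbol: the cytokines Il1a, Il1b and Il18, the antagonists Il1rn and Il18bp, the signalling receptor Il1r1 with its partner chain Il1rap, the decoy receptor Il1r2, and Il1rl1, the receptor of IL-33. RNA was sequenced from macrophages that had been grown out of the bone marrow of C57BL/6 mice with M-CSF and then kept for 48 h, per the labels, across a porous insert from MC38 cells, a mouse colon cancer line; a figure legend of the study gives a shorter time. There were 2 libraries labelled WT, from wildtype mice, and 2 labelled anti-Act1, from mice whose macrophages carry a knockdown of Act1, an adaptor protein of the IL-17 receptor, and all mice were 8 weeks old per the labels. The knockdown is described as specific to macrophages, its promoter is not given in the sources used here, and there was no macrophage group without tumour cells. Total counts were 64199075 and 75062945 in the WT libraries and 61926229 and 55435063 in the anti-Act1 libraries, so that a count of 0 allows up to 3 counts, or 0.0395 to 0.0549 CPM (counts relative to the TMM-adjusted library total), for counting error only. The comparison asks how these transcripts differ between macrophages of the 2 genotypes that shared a culture with the same tumour cells.

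IL-1α and IL-1β, encoded by Il1a and Il1b, bind the same receptor, IL1R1, which then recruits IL1RAP and signals through MyD88, IRAK kinases and TRAF6 to NF-κB. IL-1β and IL-18 are made as precursors that caspase-1 cleaves inside inflammasomes, whereas the IL-1α precursor is itself active. Macrophages also make the brakes of the system: IL-1 receptor antagonist (Il1rn) occupies IL1R1 without signalling, IL-18 binding protein (Il18bp) captures IL-18, and IL1R2 binds IL-1 without signalling.

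Before the results, the labels were set against the data. The study reports that Act1 expression was markedly reduced in macrophages grown from the bone marrow of anti-Act1 mice. In the libraries used here, the level of Traf3ip2, the Act1 gene, was 6.98 and 7.54 CPM under the WT label. It was 9.63 and 7.84 CPM in the anti-Act1 libraries. The transcript was thus not lower under the knockdown label (log2 fold change 0.27, SE 0.12, edgeR adjusted p = 0.117), and 1 of the 13 alternatives passed the threshold. Leaving out anti-Act1 replicate 2 gave 0.41 (edgeR adjusted p = 0.0343), and leaving out anti-Act1 replicate 1 gave 0.11 (edgeR adjusted p = 0.723). The summed level of 4 genes of the Y chromosome, Ddx3y, Eif2s3y, Kdm5d and Uty, was 228 and 246 CPM in the WT libraries and 0.0162 and 0 CPM in the anti-Act1 libraries. The groups therefore differ in Y-linked transcripts as well as in label, and the part of this difference in any result below cannot be told apart from that of the genotype. All 8 macrophage markers were detected, with a summed level of 24570 to 26254 CPM over the 4 libraries. Lyz2, a lysozyme, was the most abundant of them at 15809 to 17734 CPM, Cd14 was higher in the anti-Act1 libraries (log2 fold change 0.16, edgeR adjusted p = 0.0113), and Itgam and Mertk were lower (-0.31 and -0.40, edgeR adjusted p = 3.96e-06 and 4.09e-08).

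Il1a and Il1b lie next to each other on chromosome 2, and the bases just before their transcription starts are shown because these genes are neighbours that differed in the same direction by unequal amounts. Il1a spans chr2:129299610-129309972 and Il1b chr2:129364570-129371139 (GRCm38.p6, both on the minus strand), with 54.6 kb between them. The 250 bases before the RefSeq start of each gene are given 5′ to 3′ on the strand of the gene (GRCm38.p6, chr2:129309973-129310222 for Il1a and chr2:129371140-129371389 for Il1b), and capitals mark TATAAA on that strand and TGANTCA, the AP-1 motif, on either strand.
Il1a: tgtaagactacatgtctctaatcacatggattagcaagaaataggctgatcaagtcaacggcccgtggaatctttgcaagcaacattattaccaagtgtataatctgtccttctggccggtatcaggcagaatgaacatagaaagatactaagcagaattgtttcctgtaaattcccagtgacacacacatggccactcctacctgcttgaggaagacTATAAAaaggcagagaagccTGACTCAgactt
Il1b: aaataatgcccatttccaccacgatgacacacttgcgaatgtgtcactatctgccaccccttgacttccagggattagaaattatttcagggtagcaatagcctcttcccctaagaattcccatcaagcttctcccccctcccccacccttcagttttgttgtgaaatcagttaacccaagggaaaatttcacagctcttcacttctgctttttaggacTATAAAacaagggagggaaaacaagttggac
Both windows held TATAAA, 32 to 27 bases before the Il1a start and 31 to 26 bases before the Il1b start, a match found in 7.59% of 32851 RefSeq promoter windows of this length. The Il1a window also held TGACTCA 12 to 6 bases before the start (TGANTCA in 6.75% of windows), which was not found in the Il1b window. TTNNGNAA, a C/EBP motif searched on both strands, had 1 match in each window and is found in 36.8% of all windows. In the Il1a window it overlaps the single match of GAGGAA, a PU.1 motif found in 23.3% of windows. The κB motif, sought on both strands and present in 3.9% of windows, had no match in either. A match is a description of the letters and not a measured site.

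Il1a rose in the anti-Act1 libraries more than any other member, to 2.55 times the WT level, and Il1b, Il1rn and Il18bp rose by less, to 1.22 times or below, while Il18 and the receptor genes did not pass the test. The quasi-likelihood test of edgeR was run on the 12494 genes with enough counts, and p-values were adjusted over all of them by the Benjamini-Hochberg method. Of the 9 members, 8 were tested and 4 had an adjusted p under 0.05, beside 20.7% of all tested genes. DESeq2 called 3 members, all higher, beside 1077 genes called higher and 902 called lower in all. Il18bp passed the threshold in 5 of the 13 alternatives. Called higher in the anti-Act1 libraries by edgeR were 4 of the 8, beside 10.9% of all tested genes. No member was called lower by edgeR, beside 9.76% of tested genes, or by DESeq2, beside 902 genes. At an unadjusted p under 0.05 in edgeR, 0 members were lower, beside 1879 genes. The CPM of the groups did not overlap for 5 of the 8 tested members (Il1a, Il1b, Il18, Il1rn and Il18bp), a share near the 57.1% of all tested genes. Without overlap and higher in the anti-Act1 libraries were 4 of the 8, beside 28.4% of all tested genes. The median log2 fold change of the 8 was 0.22, and that of all tested genes was -0.0046. The study names IL-1α and IL-1β among the cytokines enriched in its anti-Act1 macrophages by RNA sequencing. The members were also chosen with earlier results of these data known. Their count is therefore not independent evidence of its direction.

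Il1a was at 20.4 and 18.9 CPM in the WT libraries and at 50.19 and 50.05 CPM in the anti-Act1 libraries. Both anti-Act1 libraries lay far above both WT libraries, and the libraries within a group were close to each other. The log2 fold change was 1.35 (SE 0.07, 95% interval 1.22 to 1.49, edgeR adjusted p = 3.49e-21), and 82 genes with an adjusted p under 0.05 had a larger rise. It stayed between 1.23 and 1.41 under the 13 alternatives and passed the threshold in all 13. In the GENCODE M21 annotation, 222 of the 1974 exonic bases of Il1a are shared with Gm14023 on the opposite strand, and the strand setting of the authors' counting is not given in the sources used here.

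Il1b, the IL-1 gene with the higher level in both groups, was at 110 and 99.2 CPM in the WT libraries and at 131 and 124 CPM in the anti-Act1 libraries. The groups did not overlap, but the distance between them was of the same order as the distance between the WT libraries. The log2 fold change was 0.29 (SE 0.06, 95% interval 0.17 to 0.40, edgeR adjusted p = 8.40e-05), which is a fold of 1.22. This interval does not reach that of Il1a. Of the 13 alternatives, 12 passed the threshold, and limma on log2(FPKM + 1) without a filter did not (0.26, limma adjusted p = 0.0822). Il1b shares 25 exonic bases with Il1bos on the other strand. Il18 was at 14.98 and 14.7 CPM in the WT libraries and at 13.7 and 13.2 CPM in the anti-Act1 libraries. Both anti-Act1 libraries were below both WT libraries by a small amount, and its log2 difference was -0.14 (SE 0.09, 95% interval -0.32 to 0.04), with an edgeR adjusted p of 0.294.

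**Figure D1:**
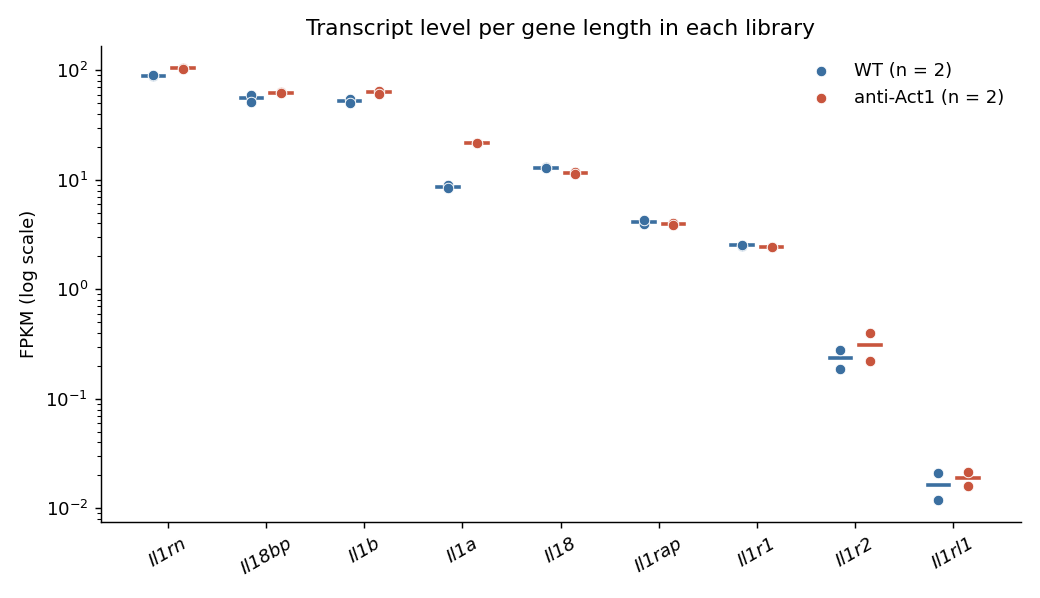
Level of each of the 9 members in FPKM (counts divided by gene length and library total, log axis) in the 2 WT and 2 anti-Act1 libraries, with a point for each library and a line for each group mean. Il1a moves from 8.67 to 21.7 FPKM, above Il18, while Il1r2 and Il1rl1 stay below 1 FPKM in every library.

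The antagonist Il1rn was the most abundant member, at 218 CPM in both WT libraries and at 261 and 257 CPM in the anti-Act1 libraries. The WT libraries were almost equal and both anti-Act1 libraries were higher. Its log2 fold change was 0.25 (SE 0.05, 95% interval 0.15 to 0.35, edgeR adjusted p = 0.000168), and all 13 alternatives passed the threshold, with values from 0.22 to 0.26. Il18bp was at 71.0 and 60.7 CPM in the WT libraries and at 75.5 and 75.2 CPM in the anti-Act1 libraries. WT replicate 1 was nearer to the anti-Act1 libraries than to WT replicate 2. The log2 fold change of Il18bp was 0.20 (SE 0.06, 95% interval 0.07 to 0.32, edgeR adjusted p = 0.0164), and 5 of the 13 alternatives passed the threshold. Without WT replicate 2 it was 0.09 (edgeR adjusted p = 0.447), leaving out anti-Act1 replicate 1 or anti-Act1 replicate 2 gave 0.20 in each case (edgeR adjusted p = 0.0936 and 0.0815), and with DESeq2 the adjusted p was 0.058. Il18bp shares 80 exonic bases with Numa1 on the other strand, whose log2 fold change was -0.11 (edgeR adjusted p = 0.132).

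None of the 3 tested receptor genes among the members passed the threshold with edgeR or DESeq2, or at an unadjusted p under 0.05 in edgeR. Of all 12494 tested genes, edgeR called 20.7%, and DESeq2 called 1979 genes. At an unadjusted p under 0.05 in edgeR, 2039 genes were higher and 1879 lower. The absence of calls among 3 genes does not set them apart from these shares. Il1r1, the signalling receptor, was at 11.9 and 12.2 CPM in the WT libraries and at 11.8 and 11.9 CPM in the anti-Act1 libraries. Its log2 difference was -0.03, with a 95% interval of -0.22 to 0.17 and an edgeR adjusted p of 0.898. Il1rap, whose product joins IL1R1 and also the receptors of IL-33 and IL-36, was at 15.1 and 16.2 CPM and at 15.6 and 14.9 CPM in the same order. The groups overlapped for both genes, and the log2 fold change of Il1rap was -0.04 (SE 0.09, 95% interval -0.21 to 0.14, edgeR adjusted p = 0.814) and 0.02 without WT replicate 2. In the annotation, 552 of its 11360 exonic bases are shared with Gm20319 on the other strand.

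The decoy receptor Il1r2 had 32 and 25 counts in the WT libraries and 44 and 22 counts in the anti-Act1 libraries. These are 0.495 CPM (exact Poisson 95% interval 0.339 to 0.699), 0.329 (0.213 to 0.486), 0.712 (0.518 to 0.956) and 0.403 (0.253 to 0.610), intervals that cover counting error only. The groups overlapped, anti-Act1 replicate 2 being below WT replicate 1. The log2 fold change was 0.46 (SE 0.46, 95% interval -0.47 to 1.38, edgeR adjusted p = 0.553), a width that includes the value seen for Il1a, and without anti-Act1 replicate 1 it was -0.02. Il1rl1 had 6 and 4 counts in the WT libraries and 6 and 4 counts in the anti-Act1 libraries, too few for the test.

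**Figure D2:**
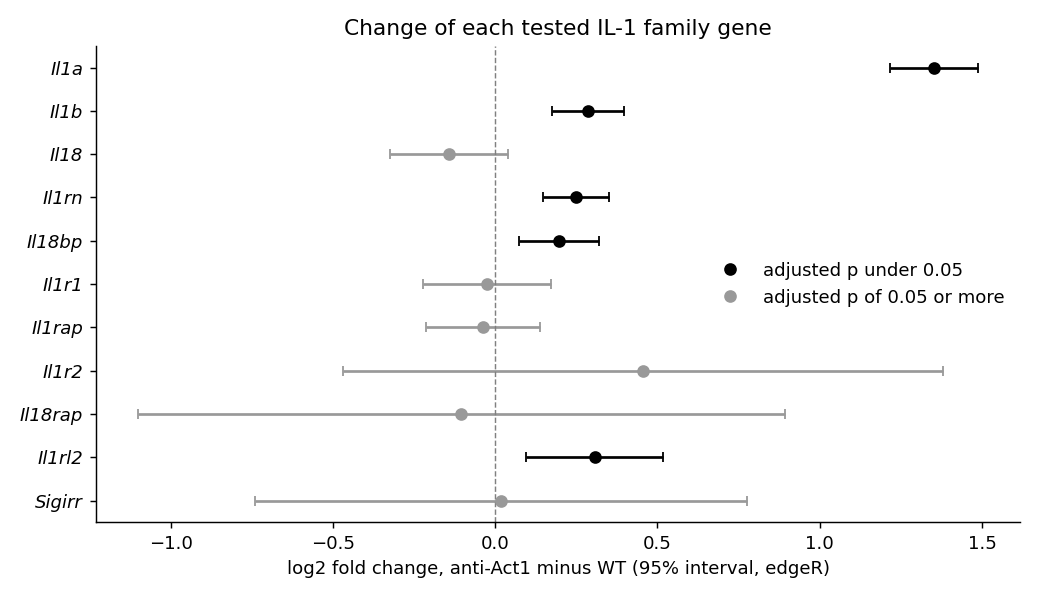
Log2 fold change (anti-Act1 minus WT, x axis) with its 95% interval from edgeR for the 8 tested members and the 3 other tested family receptors, black where the adjusted p is under 0.05. The interval of Il1a, 1.22 to 1.49, lies apart from those of Il1b, Il1rn and Il18bp, and the intervals of Il1r2, Il18rap and Sigirr are wide.

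On the FPKM scale, which allows levels of different genes to be compared per length, the order in the WT libraries was Il1rn at 89.7 ± 0.245 (SD, n = 2), Il18bp at 55.7 ± 5.97, Il1b at 52.7 ± 3.53, Il18 at 12.97 ± 0.145, Il1a at 8.67 ± 0.450, Il1rap at 4.13, Il1r1 at 2.52, Il1r2 at 0.234 and Il1rl1 at 0.0164. Il18bp and Il1b overlapped between libraries, and every other pair of neighbours in this order was separate. The order rests on the gene lengths behind FPKM. For Il1rn and Il18bp these were 2451 and 1193 bases, where GENCODE M21 lists 5535 and 3026 exonic bases. The order under other lengths was not computed. In the anti-Act1 libraries Il1rn was at 105 ± 1.99 FPKM, Il1b at 63.1 ± 3.01 and Il18bp at 62.6 ± 0.737, the last pair again overlapping. Il1a, at 21.7 ± 0.235 FPKM, now stood above Il18, at 11.5 ± 0.414 FPKM, which is the 1 change of order between groups that is larger than the spread of the libraries. By the same lengths, the mean gains were 15.04 FPKM for Il1rn, 13.1 for Il1a, 10.4 for Il1b and 6.94 for Il18bp. The gene with the largest fold was thus not the one with the largest gain in FPKM.

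Ratios within a library do not depend on the scaling between libraries. The FPKM ratio of Il1a to Il1b was 0.163 and 0.166 in the WT libraries and 0.336 and 0.354 in the anti-Act1 libraries, a log2 difference of 1.07. The ratio of the antagonist Il1rn to the sum of Il1a and Il1b was 1.39 and 1.53 in the WT libraries and 1.22 and 1.25 in the anti-Act1 libraries, a log2 difference of -0.24. By FPKM, Il1rn thus exceeded the sum of the 2 IL-1 transcripts in all libraries. It did so by less in the anti-Act1 libraries, although Il1rn itself was higher there. Whether Il1rn exceeds the sum depends on the length taken for it, 2451 bases in FPKM against 5535 exonic bases in GENCODE M21. The ratio of Il18bp to Il18 was 4.58 and 3.999 against 5.34 and 5.52, a log2 difference of 0.34. The groups were separate for these 3 ratios, each with an exact two-sided permutation p = 0.333 (0.444 after Benjamini-Hochberg adjustment over the 4 ratios), which is the smallest that 2 libraries against 2 allow. The ratio of decoy to signalling receptor, Il1r2 to Il1r1, was 0.113 and 0.0730 against 0.164 and 0.0917 and overlapped (exact permutation p = 0.667).

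**Figure D3:**
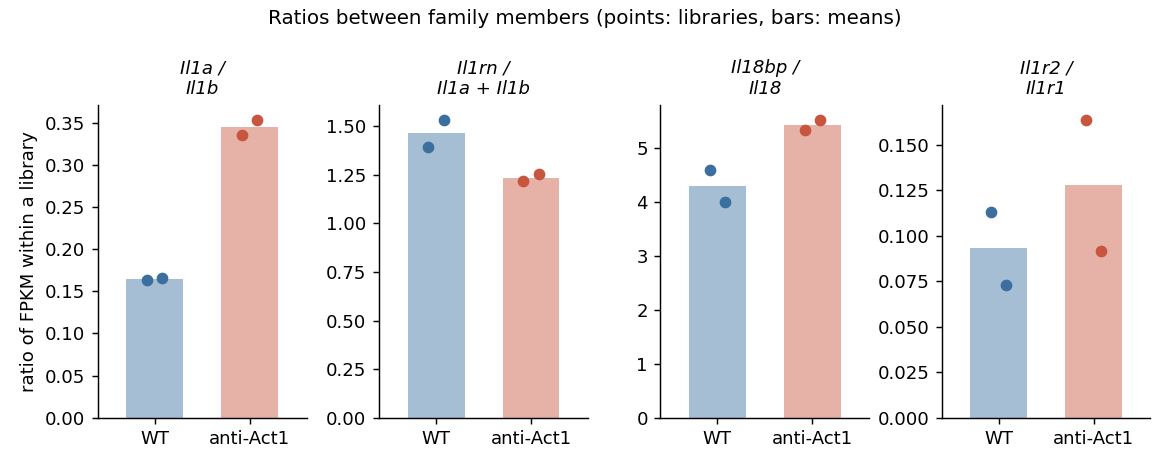
FPKM ratios between members within each library (points) with group means (bars, from 0). The Il1a to Il1b ratio is 0.163 and 0.166 in the WT libraries and 0.336 and 0.354 in the anti-Act1 libraries, and the Il1r2 to Il1r1 ratio overlaps between groups.

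The rest of the family was near or at the detection limit on the ligand side. Of 6 other ligand genes 0 had enough counts for the test: Il33, Il1f8, Il1f5 and Il1f10 had 0 counts in all libraries, Il1f9, which encodes IL-36γ, had 14 and 2 counts in the WT libraries and 6 and 4 in the anti-Act1 libraries, and Il1f6 had 0 and 0 against 2 and 3. Of 6 other receptor genes 3 were tested. Il1rl2, the receptor of IL-36, was at 9.29 and 11.1 CPM in the WT libraries and at 13.4 and 11.8 CPM in the anti-Act1 libraries, a log2 fold change of 0.31 ± 0.11 (SE) with an edgeR adjusted p of 0.0307. Both anti-Act1 libraries were above both WT libraries, yet 6 of the 13 alternatives passed the threshold, and the value was 0.21 without anti-Act1 replicate 1 (edgeR adjusted p = 0.316) and 0.185 without WT replicate 1 (edgeR adjusted p = 0.301). Sigirr, an inhibitory receptor, had 51, 48, 37 and 46 counts in WT replicates 1 and 2 and anti-Act1 replicates 1 and 2, and Il18rap, a chain of the IL-18 receptor, had 29, 25, 25 and 17. Neither passed the threshold (edgeR adjusted p = 0.983 and 0.917). Il18r1, the chain that binds IL-18, had 29 and 8 counts in the WT libraries against 3 and 4 in the anti-Act1 libraries, too few for the test with all 4 libraries. Without WT replicate 2, it was called lower (log2 fold change -2.85, edgeR adjusted p = 0.0173), but this leaves the library with 29 counts as the lone WT sample, which is assumed to vary like the anti-Act1 libraries. It was not called when anti-Act1 replicate 1 (-1.86, edgeR adjusted p = 0.306) or anti-Act1 replicate 2 (-2.43, 0.175) was left out, nor without a filter on low counts (-2.14, 0.143).

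Il1a and Il1b were the only members adjacent on the chromosome that both rose. On one side of the pair, Ckap2l and Slc20a1 did not pass the threshold (log2 fold change -0.08 for each, edgeR adjusted p = 0.929 and 0.392). On the other side, F830045P16Rik was higher by 0.49 on the log2 scale (edgeR adjusted p = 0.0461), and Sirpa, the receptor of CD47, had -0.16 (edgeR adjusted p = 0.0146). Il1rn lies 104.9 Mb away from Il1a on the same chromosome, at chr2:24336853-24351494 on the plus strand, after Il1f5 and Il1f10, both at 0 counts. Its neighbour Psd4 was at -0.03 (edgeR adjusted p = 0.719). The receptor genes Il1r2, Il1r1, Il1rl2, Il1rl1, Il18r1 and Il18rap follow each other on chromosome 1, and Il1rl2 was the single one of them called. Map4k4, a kinase gene just before Il1r2, was at 0.31 (edgeR adjusted p = 8.20e-06).

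**Figure D4:**
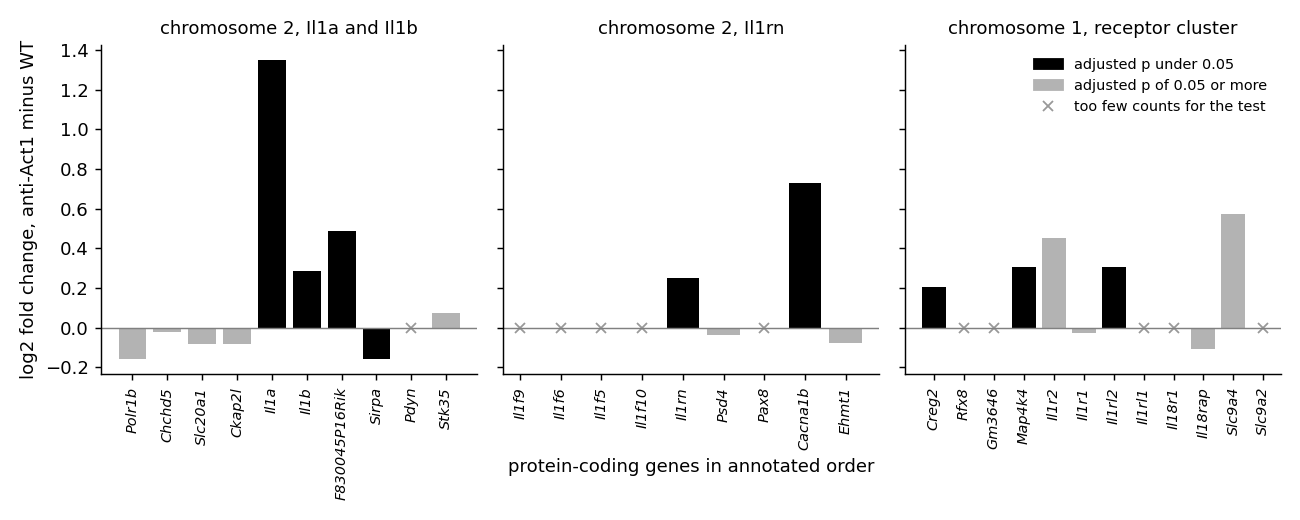
Log2 fold change (anti-Act1 minus WT, y axis) of protein-coding genes in annotated order around Il1a with Il1b, around Il1rn and around the receptor cluster, black where the edgeR adjusted p is under 0.05 and a cross where counts were too few for the test. Il1a reaches 1.35 beside Ckap2l at -0.08, and Il1rn reaches 0.25 beside Psd4 at -0.03.

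Signalling genes downstream of IL1R1 moved in both directions by small amounts. Of 22 tested, 5 were higher and 3 lower at an edgeR adjusted p under 0.05, beside 10.9% and 9.76% of all tested genes, with a median log2 fold change of -0.04. The rises were Irak3, an inhibitory IRAK, at 0.44 (edgeR adjusted p = 4.93e-08), the ubiquitin ligase Traf6 at 0.43 (3.36e-08), the kinase Irak2 at 0.26 (0.00022), and Tollip and Ube2v1 at 0.18 each (0.011 and 0.0182). Irak3 was at 56.7 and 55.4 CPM in the WT libraries and at 74.3 and 77.8 CPM in the anti-Act1 libraries, without overlap, and Irak3, Traf6 and Irak2 passed the threshold in all 13 alternatives. The falls were the kinases Irak4 at -0.21 (0.00994), Ikbkb at -0.15 (0.0325) and Map3k3 at -0.14 (0.0379). The adaptor Myd88 did not pass (-0.09, edgeR adjusted p = 0.248). The count of lower genes was 0 when anti-Act1 replicate 1 or anti-Act1 replicate 2 was left out, 1 when WT replicate 2 was, and 2 when WT replicate 1 was. The count of higher genes was 3 without anti-Act1 replicate 2 and 4 without each of the others. Left-out values of Irak4, Ikbkb and Map3k3 ranged from -0.24 to -0.13. Tollip lost its call when anti-Act1 replicate 2 or WT replicate 1 was left out (0.14 each), as did Ube2v1 when anti-Act1 replicate 1, anti-Act1 replicate 2 or WT replicate 2 was (0.20, 0.15 and 0.13).

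Genes for the processing and release of IL-1 and IL-18 were likewise split, with 6 of 24 tested higher and 4 lower, beside the same 10.9% and 9.76% of all tested genes, and a median log2 fold change of -0.03. Ninj1, which drives rupture of the plasma membrane in dying cells, was at 397 and 368 CPM in the WT libraries and at 520 and 539 CPM in the anti-Act1 libraries (log2 fold change 0.47, edgeR adjusted p = 5.77e-10). Nlrp3, the sensor of an inflammasome, was at 64.5 and 65.3 CPM against 79.2 and 81.3 CPM (0.31, edgeR adjusted p = 3.72e-05). Neither gene overlapped between groups. Txnip, which binds NLRP3, and Naip2, which senses bacterial secretion systems, were at 0.29 and 0.27 on the same log2 scale (edgeR adjusted p = 1.06e-05 and 0.000105). Among the falls, the inflammasome sensor Nlrp1b was at -0.67 (log2, edgeR adjusted p = 1.15e-08) and P2rx7, the ATP-gated channel upstream of NLRP3, had -0.36 (1.50e-06), and both passed in all 13 alternatives. Nlrp1a (-0.38, edgeR adjusted p = 0.0239) and Naip6 (-0.17, 0.0287) lost their calls when anti-Act1 replicate 1 (-0.39 and -0.13), anti-Act1 replicate 2 (-0.38 and -0.21) or WT replicate 1 (-0.33 and -0.16) was left out, and the count of lower genes was 2 when 1 of the anti-Act1 libraries was. Reads of Nlrp1a and Nlrp1b, and of Naip2 and Naip6, are uncertain because these are closely related copies whose reads the counting could split. Casp1, whose product cleaves the precursors, was at -0.15 (edgeR adjusted p = 0.0616), and Capns1, a calpain subunit and among the most abundant of the list, had 0.05 (edgeR adjusted p = 0.511).

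Genes known to be induced by IL-1 were mostly higher in the anti-Act1 libraries. Of 25 listed, 20 were tested, 16 were higher and 1 lower, beside 10.9% and 9.76% of all tested genes. The median log2 fold change was 0.81. Irak3, counted above among the signalling genes, is also among the 16. Some of these genes were chosen by the study on these libraries, so the count is not independent evidence of its direction. Most also respond to TNF and Toll-like receptor ligands. Cxcl3 and Cxcl1, which attract neutrophils, had log2 fold changes of 1.75 and 1.46 (edgeR adjusted p = 1.57e-15 and 3.17e-17). Ptges, a prostaglandin E synthase, had 1.41 (2.10e-17), and the abundant genes Saa3, Cxcl2 and Nfkbia had 1.18, 0.95 and 0.71 (1.82e-22, 3.06e-19 and 9.21e-15). Il6 had 4 and 2 counts in the WT libraries and 17 and 18 in the anti-Act1 libraries, separate groups at a level near the detection limit (log2 fold change 2.76, 95% interval 1.15 to 4.37, edgeR adjusted p = 0.00913). Its call was lost when anti-Act1 replicate 1 (2.89, edgeR adjusted p = 0.0686), anti-Act1 replicate 2 (2.63, 0.124) or WT replicate 2 (2.25, 0.147) was left out, and over all alternatives that gave a value it ranged from 0.29, on log2(FPKM + 1), to 3.42. Vcam1, an adhesion molecule, was the single one of the 20 tested genes that fell, from 16.5 and 17.3 CPM to 7.50 and 5.82 CPM (-1.34, edgeR adjusted p = 3.93e-14).

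Of 9 transcription factors known to drive Il1b, 1 was higher and 1 lower, a share near the 20.7% of all tested genes called, with a median log2 fold change of -0.02. Cebpb was at 351 and 212 CPM in the WT libraries and at 170 and 133 CPM in the anti-Act1 libraries, so that it was lower in both anti-Act1 libraries while varying widely within groups (-0.89, SE 0.10, edgeR adjusted p = 1.09e-09). DESeq2 did not call it (-0.89, adjusted p = 0.12), and its range over the 13 alternatives was -1.21 to -0.48. Nfkb1 was at 0.15 (edgeR adjusted p = 0.0465) and passed in 3 of 13 alternatives, losing its call without anti-Act1 replicate 1 (0.14), anti-Act1 replicate 2 (0.15) and WT replicate 2 (0.12). Spi1, which encodes PU.1, and Irf8 were among the most abundant factors and did not pass (-0.01 and -0.04, edgeR adjusted p = 0.931 and 0.634).

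**Figure D5:**
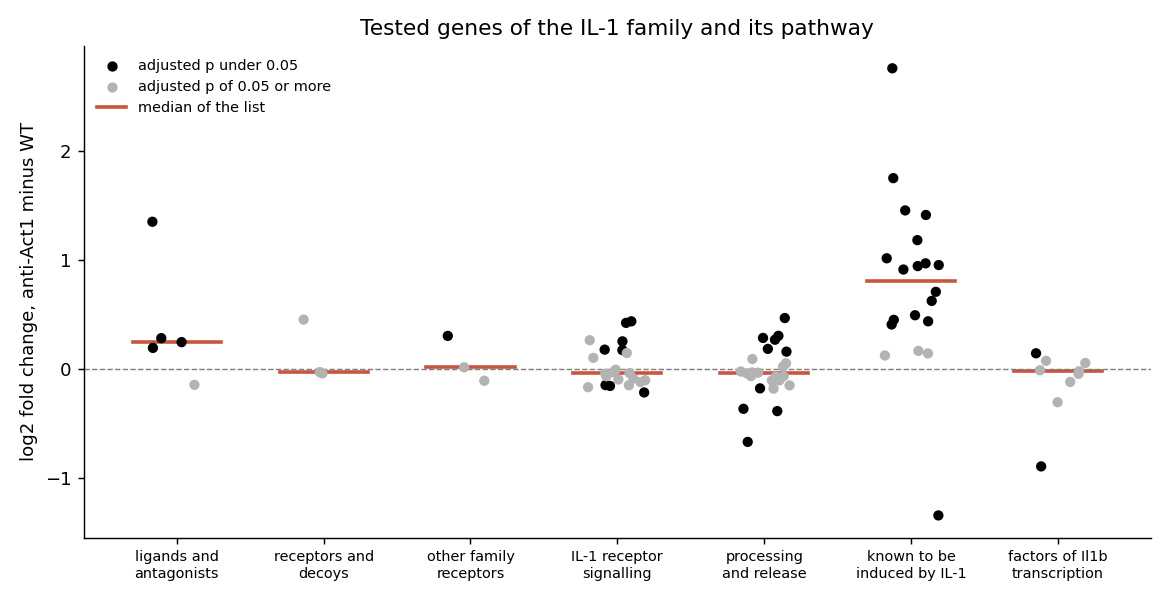
Log2 fold change (anti-Act1 minus WT, y axis) of every tested gene of the members and 5 pathway lists, black where the edgeR adjusted p is under 0.05, with a line at the median of each list. The genes known to be induced by IL-1 have a median of 0.81, and the medians of signalling, processing and transcription factor genes lie between -0.04 and -0.02.

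The tested genes whose 4 values were closest to those of Il1a, after each was centred on its mean log2 CPM, were Rgcc, Acod1, which makes itaconate, and Mill2. Their root mean square differences were 0.0308, 0.0476 and 0.0487 log2 units. The closest genes to Il1b were Mlkl, the effector of necroptosis, Mcemp1 and Gnb5 (0.00849, 0.0157 and 0.0164). Closest to Il1rn were Gzf1, Ghitm and Bri3bp (0.00536, 0.00643 and 0.0104). The search covered 8405 genes under a cut at 10 CPM that did not have to hold in each group. Rgcc averaged 6.61 CPM in the WT and 16.6 CPM in the anti-Act1 libraries, and Gnb5 averaged 9.31 and 11.2 CPM. With 4 libraries in 2 groups, the root mean square differences mainly describe the size of the difference between groups.

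Markers of other cells that can express these genes were examined, since in bulk RNA fewer cells of a type and less RNA per cell cannot be told apart. The 11 neutrophil markers, relevant to Il1b and Il1r2, summed to 7.72 and 7.54 CPM in the WT libraries and to 7.71 and 6.70 CPM in the anti-Act1 libraries. S100a8, the most abundant, was at 3.61 and 3.74 against 6.09 and 5.55 CPM and was called higher (log2 fold change 0.66, edgeR adjusted p = 0.000564). S100a9, Ngp, Ltf and Retnlg were called lower by edgeR (log2 fold change -1.42, -2.21, -1.58 and -3.95). Of 7 tested, 1 was thus higher and 4 lower, beside 10.9% and 9.76% of all tested genes. The median log2 fold change of the 7 was -1.42. Ly6g had 5 counts in WT replicate 1 and 0 in the others. DESeq2 called 1 of the neutrophil markers higher and 2 lower. The part of neutrophils in the Il1b result was not tested. The 10 mast cell and basophil markers, relevant to Il1rl1, summed to 0.549 to 1.24 CPM, led by Kit, with Fcer1a, Mcpt4, Tpsb2 and Cma1 at 0 counts in all libraries. The 7 epithelial markers summed to 0.128 to 0.464 CPM, led by Cdh1, with Krt8, Krt18 and Cldn4 at 0 counts, and the 8 fibroblast markers summed to 1.76 to 2.48 CPM, led by Pdgfrb, with Lum at 0. Of the 9 T cell and innate lymphoid markers, Il7r made up almost all of the 819 to 914 CPM, and Cd4 was called higher (0.21, edgeR adjusted p = 0.0358), while Cd3d, Cd3e and Cd3g had at most 6 counts in any library. DESeq2 called none of these markers, Cd4 included. NK cell markers summed to 0.470 to 0.665 CPM, B cell markers, led by Cd79b, to 2.91 to 4.03 CPM, and dendritic cell markers, led by Clec9a, to 4.26 to 5.31 CPM, with Cd209a at 0.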

How the data were processed

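The authors aligned paired reads with TopHat and deposited whole counts per gene, without normalization, and FPKM. The submitters' processing notes name Bowtie 0.12.2 and HTSeq 0.6.1; they list mm8 and mm10, and the annotation and strand setting are not given in the sources used here. FPKM recomputed from the deposited counts, gene lengths and column totals differed by at most 9.54e-08 of the value. Per the labels, 4 libraries formed 2 groups, described by the study as biological replicates. The table holds 21878 genes, 6383 at 0 throughout; 27 names had become dates and 2 stood on 2 lines.

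Counts were tested with edgeR 4.0.16 (R 4.3.3; TMM, filterByExpr, group only, two-sided quasi-likelihood test, threshold 0.05, checked on simulated data). Alternatives were DESeq2 1.42.0, other scalings and filters, a replicate block, limma 3.58.1 on log2 of FPKM plus 1 or 0.1, and each library left out. Members and gene lists were chosen with earlier results of these data known. Of each list, at most 4 called genes per direction, by size of change, and the 3 most abundant by FPKM were named, besides family genes, members of marker lists, and neighbours. Casp1 was added after its values were seen. Promoter windows are from RefSeq (GRCm38.p6, promoters for 9 of 9 members). Gene positions, neighbours and exon overlap are from GENCODE M21. Neither source is part of the deposited files. An exact permutation test of 2 libraries against 2 cannot go below p = 0.333.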

Additional observations from a re-analysis of the deposited data

How the results depend on the processing

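Il1a and Il1rn kept their direction and call in all 13 alternatives and Il1b in 12, while Il18bp kept its direction in all and its call in 5. Under limma on unfiltered log2(FPKM + 1), 2 members were called, both higher, and 1091 genes in all, 582 higher and 509 lower. With limma on log2(FPKM + 0.1), 908 genes were higher and 1053 lower, and with library totals only 1105 were higher and 1411 lower. In both, lower calls outnumbered higher ones, whereas the main fit had 1366 higher and 1220 lower. When each library was left out in turn, 1671 to 2543 genes were called, of which 741 to 1208 were lower, with the lowest counts without anti-Act1 replicate 2. DESeq2 called 1979 genes, 1954 of them shared with edgeR. The replicate numbers did not pair the libraries (correlation of deviations -0.03, 2 pairs), and with the replicate block 2406 genes were called, 2367 of them shared; of the members and pathway genes named, Ikbkb, Map3k3 and Nfkb1 lost their calls in that fit (edgeR adjusted p = 0.0638, 0.075 and 0.0845), which left 1 signalling gene lower in place of 3, and 5 processing genes were higher in place of 6. Values that changed sign had intervals spanning 0: leaving out each library gave -0.091 to 0.017 for Il1rap, -0.021 to 0.80 for Il1r2, -0.24 to 0.25 for Sigirr, -0.32 to 0.12 for Il18rap and -0.020 to 0.0065 for Spi1, and Sigirr was -0.0075 with library totals only and -0.0029 under limma on unfiltered log2(FPKM + 1). The cause was not tested. Library totals only moved the median of all genes to -0.03. Depth limits Il1r2, Il1rl1, Il6 and the other ligands, and 2 libraries per group limit every estimate of spread.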
